A study of Mus musculus with 39 samples.

Results

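Collagen genes were followed through RNA libraries of mouse embryonic brain macrophages. The members were all rows of the deposited count table whose gene identifier maps to a symbol of the form Col, number, a, number, which gave 44 of 53379 genes. All 44 had at least 1 count somewhere, and 42 had enough counts to be tested; Col24a1 and Col6a4 were not. The cells were sorted from brains of C57Bl/6 embryos, with no genotype or treatment given in the labels, and were called microglia, the macrophages of the brain tissue itself, or border-associated macrophages (BAM), which sit in the meninges, around vessels and in the choroid plexus. Microglia gave 4 libraries at E10.5 (E for embryonic day), 3 at E11.5, 3 at E12.5, 2 at E14.5, 3 at E16.5 and 4 at E18.5. BAM gave 4, 3, 3, 3, 3 and 4 libraries at the same stages. The sort markers are not in the labels, nor is it said whether the libraries of a group came from separate embryos or litters, so p-values measure only the spread between these samples.

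Most collagens are secreted proteins built of chains that wind into triple helices and then assemble outside the cell. Col13a1, Col17a1, Col23a1 and Col25a1 encode transmembrane collagens. Fibril-forming collagens such as types I, III and V make the rope-like fibres of connective tissue, type IV makes the sheet of basement membranes, type VI makes beaded filaments, and types XV and XVIII are tied to basement membranes and release antiangiogenic fragments. In the developing brain, fibrillar collagens are known from the meninges and type IV collagen from the walls of vessels and the pial surface. Fibroblasts, pericytes and endothelial cells are their usual makers, and macrophages are better known for taking collagen up and breaking it down.

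Library totals ran from 10.7 to 47.2 M counts. Levels below are counts divided by the library total and scaled to 1 M counts (CPM). Library names carry either R8 or R10. R10 covered every library of the earliest stages, E10.5 and E11.5, together with replicate 1 of each population at E18.5. R8 covered the rest, so stage and library series are largely joined. The 8 pan-macrophage markers summed to 6169 to 24246 CPM in the 39 libraries. The 5 microglial markers were higher in every microglia library than in any BAM library of the same stage, and the 6 BAM markers summed to 8094 to 21781 CPM in BAM against 583 to 5129.5 CPM in microglia. In bulk libraries such as these, fewer cells of a type and less RNA per cell cannot be told apart.

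The collagens fell into a few plain patterns, which the map of group means displays. Col27a1 and Col15a1 were high in microglia and low in BAM. The most abundant members, Col3a1, Col4a1, Col1a1, Col1a2 and Col4a2, were low in both populations at E10.5 and E11.5 and much higher from E12.5 onward, again in both populations. Per kilobase of exon, the mean levels were 6.85 CPM for Col3a1, 6.79 for Col4a1 and 6.56 for Col1a1, so these were about equally abundant, and 2.55 for Col18a1. Col2a1 was highest at E12.5 and E14.5. A further 28 members stayed below 10 CPM in all libraries or all but 1.

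**Figure D1:**
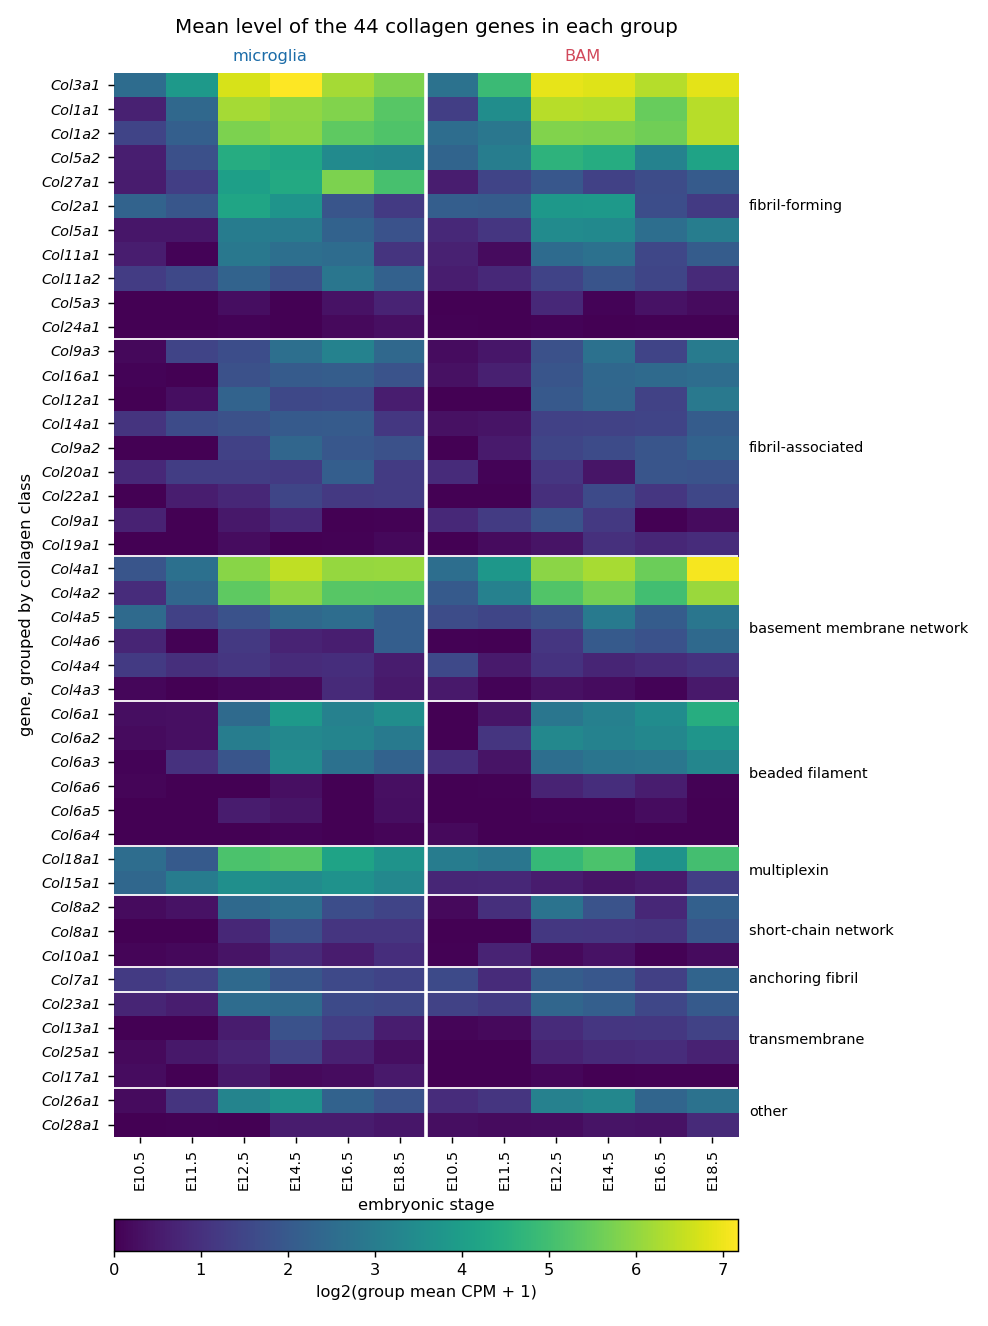
Mean level of each of the 44 collagen genes (rows, by collagen class) in the 12 groups (columns, by stage within population), coloured by log2 of the group mean CPM plus 1. Col27a1 and Col15a1 are brighter on the microglia side, with group means up to 53.7 and 11.6 CPM, while Col3a1, Col1a1, Col1a2, Col4a1 and Col4a2 brighten from E12.5 in both populations.

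The sequences upstream of Col27a1 and Col15a1 are given because these were the members that separated the populations. Both genes lie on chromosome 4 on the plus strand, Col27a1 at chr4:63214004-63334991 and Col15a1 at chr4:47208161-47313167 (GRCm38). Each window holds the 250 bases before the RefSeq start site (GRCm38.p6), written 5′ to 3′ on the gene's strand, with matches to the searched motifs in capitals. The window of Col27a1 spans chr4:63215162-63215411 and that of Col15a1 spans chr4:47207762-47208011. The Col27a1 window thus lies inside the gene span used for counting, because the RefSeq start site lies downstream of the start of that span.
Col27a1: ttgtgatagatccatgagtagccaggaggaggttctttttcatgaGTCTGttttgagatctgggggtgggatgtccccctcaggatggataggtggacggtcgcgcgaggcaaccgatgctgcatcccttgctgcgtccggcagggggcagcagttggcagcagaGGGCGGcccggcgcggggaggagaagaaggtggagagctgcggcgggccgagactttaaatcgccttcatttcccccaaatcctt
Col15a1: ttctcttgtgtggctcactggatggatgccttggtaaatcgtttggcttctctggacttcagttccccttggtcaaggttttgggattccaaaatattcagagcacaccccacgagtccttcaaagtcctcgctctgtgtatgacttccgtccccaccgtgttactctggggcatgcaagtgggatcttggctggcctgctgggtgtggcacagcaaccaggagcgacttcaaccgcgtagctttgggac

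RefSeq windows were found for 35 of the 44 members. The search covered 5 short motifs on both strands. The core of the macrophage factor PU.1 was written GAGGAA. The element of the Smad factors, which act in collagen induction, was written CAGAC. The element of the AP-1 factors was written TGANTCA, where N is any base. The box of the general factor Sp1 was written GGGCGG. The box of the basal machinery known as TATA was written TATAAA. Col27a1 had 2 matches that did not overlap, a Smad element at -205 on the minus strand and an Sp1 box at -85 on the plus strand, counted from the start site. Of 32851 windows of all genes, 42.2% held the Smad element and 32.7% the Sp1 box, so neither match is rare. Col15a1 had none of the 5 in this window, where 23.3% of all windows held the PU.1 core, 6.75% the AP-1 element and 12.4% the TATA box. The base composition was 59.6% G and C for Col27a1 and 53.6% for Col15a1, against a median of 52.4% over all windows. A match is a description of letters and not a binding site, and the absence of a match says nothing of the factor.

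Col27a1, which encodes the fibril-forming type XXVII collagen known mostly from cartilage, was about as low in both populations at E10.5 and E11.5 and then far higher in microglia. Col27a1 at E10.5 was measured at 0.85, 0.072, 0 and 0.95 CPM in microglia and 0, 1.94, 0 and 0 CPM in BAM, and at E11.5 at 0.81, 1.80 and 1.91 CPM in microglia and 1.16, 0.75 and 3.41 CPM in BAM. Col27a1 in microglia then stood at 14.3, 10.8 and 21.8 at E12.5, 21.1 and 17.7 at E14.5, 56.3, 43.2 and 61.6 at E16.5, and 20.7, 50.9, 31.7 and 29.6 at E18.5 (CPM). Col27a1 in BAM then stood at 3.23, 1.93 and 3.33 at E12.5, 1.71, 0.89 and 2.22 at E14.5, 4.02, 1.33 and 1.13 at E16.5, and 4.11, 3.64, 3.005 and 2.10 at E18.5 (CPM). From E12.5 every microglia library was above every BAM library of its stage, whereas at E10.5 and E11.5 the groups overlapped. Microglia were highest at E16.5, and BAM never exceeded 4.11 CPM.

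On the log2 scale the fitted BAM minus microglia difference of Col27a1 was -3.53 ± 0.99, adjusted p = 0.0191 at E14.5, -4.60 ± 0.97, adjusted p = 0.000653 at E16.5 and -3.45 ± 0.79, adjusted p = 0.00157 at E18.5. At E12.5 it was -2.45 ± 0.89 and did not pass (adjusted p = 0.0881), and at E10.5 and E11.5 it was 0.09 ± 0.88 and 0.20 ± 0.88. Averaged over the 6 stages the difference was -2.29 ± 0.36, adjusted p = 3.96e-06. Over E10.5 and E11.5 alone the average was 0.14. Within microglia Col27a1 rose by 6.20 ± 0.93 from E10.5 to E18.5 (adjusted p = 1.9e-06) and within BAM by 2.66 ± 0.83 (adjusted p = 0.011). The change of the difference between these stages was -3.54 ± 1.17 and missed the threshold (adjusted p = 0.0633). At E14.5 the call was lost without microglia replicate 1 (adjusted p = 0.0911) and without BAM replicate 1 or 2 (0.0645 and 0.0936), and at E18.5 without BAM replicates 3 and 4 together (0.0542). The rise in BAM was lost without the R8 libraries of E18.5 (0.0852) and with the compared groups alone (0.186).

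Col15a1, which encodes the type XV collagen of basement membrane zones, was above BAM in every microglia library of the same stage, including the earliest. Col15a1 at E10.5 was measured at 5.34, 8.15, 2.15 and 1.51 CPM in microglia and 0.48, 0.39, 0.97 and 0.94 CPM in BAM, and at E11.5 at 6.21, 9.69 and 5.52 CPM in microglia and 0.097, 0.24 and 1.91 CPM in BAM. Col15a1 in microglia then stood at 10.8, 15.2 and 7.10 at E12.5, 11.6 and 8.41 at E14.5, 15.8, 14.6 and 4.47 at E16.5, and 8.07, 7.29, 9.06 and 12.6 at E18.5 (CPM). Col15a1 in BAM then stood at 1.26, 0 and 0.082 at E12.5, 0.15, 0.61 and 0.13 at E14.5, 0.63, 0.57 and 0.084 at E16.5, and 0.45, 1.03, 1.86 and 2.75 at E18.5 (CPM). The ranges of different stages did overlap, since BAM at E18.5 reached 2.75 CPM and microglia at E10.5 went down to 1.51 CPM. Unlike Col27a1, its microglial level did not pass the test between E10.5 and E18.5.

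The fitted log2 difference of Col15a1 averaged -3.84 ± 0.39, adjusted p = 3.83e-10 over stages, the lowest value among the 42 tested members. By stage it was -2.63 ± 0.80 at E10.5, just short of the threshold (adjusted p = 0.0501), -3.28 ± 0.94, adjusted p = 0.0263 at E11.5 and -4.78 ± 1.03, adjusted p = 0.00125 at E12.5. At later stages it was -4.93 ± 1.08, adjusted p = 0.00177 at E14.5, -4.71 ± 1.01, adjusted p = 0.000878 at E16.5 and -2.72 ± 0.79, adjusted p = 0.0138 at E18.5. The change within microglia from E10.5 to E18.5 was 1.18 ± 0.74, adjusted p = 0.222, and within BAM 1.10 ± 0.78, adjusted p = 0.276. The E11.5 call was lost without microglia replicate 2 (adjusted p = 0.0761), BAM replicate 1 (0.125) or BAM replicate 2 (0.137), and the E18.5 call without BAM replicate 1 (0.0559) or without both R10 libraries (0.0765).

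**Figure D2:**
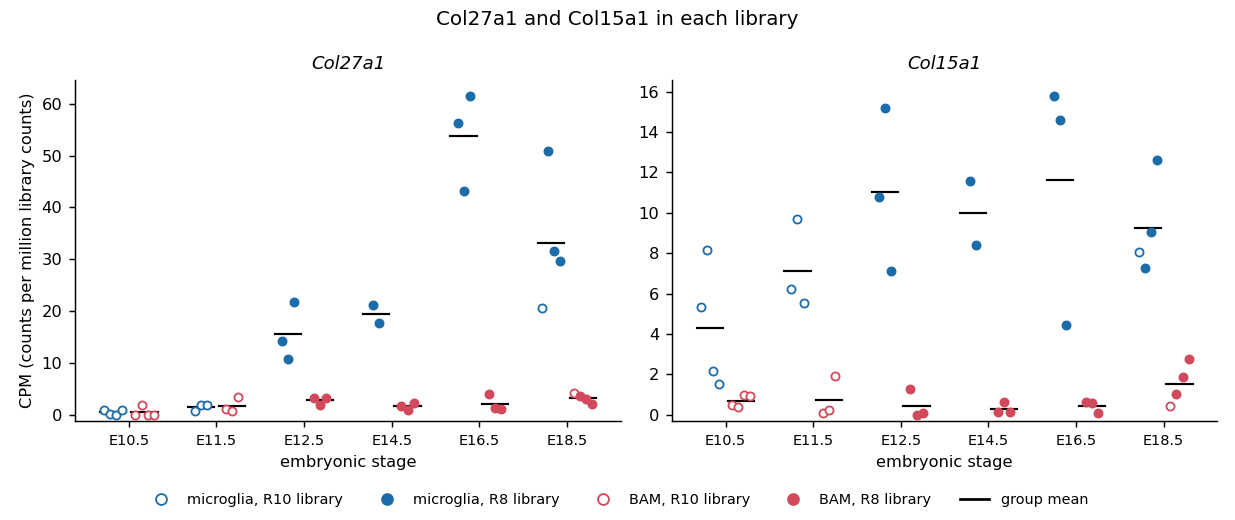
CPM of Col27a1 (left) and Col15a1 (right) in each of the 39 libraries by embryonic stage, microglia in blue and BAM in red, with open circles for R10 libraries, filled circles for R8 libraries and a bar at the group mean. Microglial Col27a1 lies between 10.8 and 61.6 CPM from E12.5 onward, above all BAM libraries, and Col15a1 is higher in microglia at each of the 6 stages.

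Across the whole collagen set, few members were called between the populations over the stages in the main fit, which did not pair libraries. Col16a1 was called higher in BAM and Col15a1, Col27a1 and Col11a2 lower, and 38 of 42 tested members were not called. The calls amount to 1 member of 42 higher, where 13.7% of all tested genes were higher, and 3 of 42 lower, where 14.501% were. With a replicate block of adjacent library numbers 9 members were called, 6 higher and 3 lower, and 6214 of all genes in place of 6229. The median log2 difference was 0.16 for the collagens and -0.02 for all genes. Col16a1, a fibril-associated collagen, was fitted at 1.79 ± 0.65, adjusted p = 0.0354, but it had 0 counts in microglia at E11.5 and the call was lost without any 1 of 10 libraries. BAM E10.5 replicate 1 and BAM E11.5 replicate 1 were the only libraries of their groups with counts of this gene, and without them the log2 difference was 0.85 and 0.68. Col11a2, a minor fibrillar chain of cartilage, was fitted at -1.29 ± 0.42, adjusted p = 0.0177. The Col11a2 call held in all 39 leave-one-out fits. It was lost over E12.5 to E18.5 alone (adjusted p = 0.082) and over E10.5 and E11.5 alone (0.241). Its levels were low, with 2.04, 5.33, 4.37 and 2.87 CPM in microglia and 0, 0.76, 1.55 and 0.95 CPM in BAM at E18.5. The groups did not overlap at E16.5 and E18.5, but they did from E10.5 to E14.5. At E14.5 BAM replicate 1 stood at 4.02 CPM, above both microglia libraries (1.68 and 3.19 CPM).

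At single stages the calls were few. At E10.5 edgeR called 0 of 42 members, with 10 at an unadjusted p under 0.05, where 2.32% of all genes were higher and 2.16% lower in BAM. DESeq2 called 7 members, 3 higher (Col4a2, Col5a2 and Col6a3) and 4 lower (Col15a1, Col6a1, Col6a2 and Col4a6). Over all genes DESeq2 called 1611 where edgeR called 989. Of the lower calls, 3 rested on few counts. The microglia libraries held 0, 4, 18 and 0 counts of Col6a1, 0, 0, 18 and 0 of Col6a2, and 51, 0, 4 and 8 of Col4a6. The BAM libraries held 0 counts of each, except 2 of Col4a6 in replicate 4. At E11.5 edgeR called 2 higher, Col9a1 and Col9a2, and 2 lower, Col15a1 and Col20a1, against 2.84% and 3.83% of all genes. Col9a1 and Col9a2, chains of the fibril-associated type IX collagen, had 0 counts in the 3 microglia libraries at E11.5. With 3 counts over the microglia group as the floor, Col9a1 was at least 46.0-fold higher in BAM (0.39, 0.75 and 2.92 CPM) and Col9a2 at least 17.1-fold (0, 1.30 and 0 CPM). The bound for Col9a1 was 20.2-fold without BAM replicate 3 and 24.5-fold without microglia replicate 2. Col9a2 rested on BAM E11.5 replicate 2 alone, and without it neither group had a count. The Col9a1 call was lost without BAM replicate 3 or any 1 of the microglia libraries, with adjusted p up to 0.114. Col20a1, another fibril-associated chain, stood at 1.44, 1.63 and 1.39 CPM in microglia and 0.097, 0 and 0.081 CPM in BAM, and its call was lost without any 1 of the 6 libraries.

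At E12.5 the single call was Col15a1, lower in BAM, against backgrounds of 4.12% higher and 4.42% lower. At E14.5 the calls were Col15a1 and Col27a1, both lower, against 3.93% and 3.25%, and at E16.5 the same genes, against 7.09% and 6.74%. At E18.5 Col27a1 and Col15a1 were lower and Col12a1 higher, against 6.7% higher and 8.75% lower. Col12a1, a fibril-associated collagen of dense connective tissue, stood at 0.085, 0.19, 0.38 and 1.33 CPM in microglia and 2.99, 10.7, 2.65 and 9.80 CPM in BAM at E18.5. These groups did not overlap, and the log2 difference was 3.61 ± 0.99, adjusted p = 0.0102, called in all 16 alternatives run. At E12.5 its levels had overlapped, with 3.70, 3.44 and 4.55 CPM in microglia and 6.95, 1.49 and 0.49 CPM in BAM.

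The abundant fibril-forming members overlapped between the populations at most stages and were far higher from E12.5 than at E10.5. Col3a1 (type III collagen, chr1:45311538-45349706, plus strand) had the highest mean, 67.2 CPM over the 39 libraries, and had counts in all of them. Col3a1 at E10.5 was measured at 1.195, 5.29, 5.40 and 7.15 CPM in microglia and 4.82, 3.03, 10.97 and 3.15 CPM in BAM, and at E11.5 at 11.1, 12.6 and 16.48 CPM in microglia and 29.2, 28.9 and 28.7 CPM in BAM. Col3a1 in microglia then stood at 125, 76.6 and 115 at E12.5, 140.2 and 148 at E14.5, 101, 98.6 and 19.1 at E16.5, and 41.4, 78.3, 41.8 and 55.5 at E18.5 (CPM). Col3a1 in BAM then stood at 184, 109 and 66.7 at E12.5, 83.0, 93.7 and 162 at E14.5, 95.5, 109 and 43.9 at E16.5, and 64.0, 67.4, 148 and 188 at E18.5 (CPM). The groups of the populations overlapped except at E11.5, where BAM was above microglia. BAM E18.5 replicates 3 and 4 were the highest of their group, and microglia E16.5 replicate 3 was far below its group.

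Col1a1 (chr11:94936224-94953042, plus strand) encodes the main chain of type I collagen, the chief protein of fibrous connective tissue. Col1a1 at E10.5 was measured at 0.085, 0.65, 1.31 and 0.32 CPM in microglia and 0.95, 0, 4.12 and 0.94 CPM in BAM, and at E11.5 at 4.66, 4.58 and 3.90 CPM in microglia and 8.72, 11.3 and 11.4 CPM in BAM. Col1a1 in microglia then stood at 74.7, 47.4 and 95.2 at E12.5, 58.1 and 66.3 at E14.5, 73.6, 79.0 and 14.95 at E16.5, and 28.9, 36.5, 33.2 and 57.1 at E18.5 (CPM). Col1a1 in BAM then stood at 125, 65.2 and 59.9 at E12.5, 44.7, 64.0 and 134 at E14.5, 54.2, 55.1 and 24.3 at E16.5, and 43.0, 40.5, 96.7 and 153 at E18.5 (CPM). It was at or below 4.12 CPM in all 8 libraries of E10.5 and at or above 14.95 CPM in all libraries from E12.5. At E11.5 the 3 BAM libraries were above the 3 microglia libraries.

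Col1a2 (chr6:4504814-4541544, plus strand) encodes the partner chain of Col1a1 in type I collagen. Col1a2 at E10.5 was measured at 1.11, 0.36, 4.16 and 1.43 CPM in microglia and 4.41, 5.15, 9.18 and 0.94 CPM in BAM, and at E11.5 at 2.29, 2.88 and 5.48 CPM in microglia and 7.66, 6.14 and 4.63 CPM in BAM. Col1a2 in microglia then stood at 52.5, 41.5 and 66.9 at E12.5, 44.2 and 75.8 at E14.5, 52.0, 57.0 and 15.2 at E16.5, and 19.4, 47.1, 29.8 and 46.8 at E18.5 (CPM). Col1a2 in BAM then stood at 86.8, 42.8 and 35.4 at E12.5, 28.9, 38.5 and 94.6 at E14.5, 46.3, 59.4 and 40.5 at E16.5, and 35.1, 59.9, 109 and 131 at E18.5 (CPM). The groups overlapped at each stage, and BAM E18.5 replicates 3 and 4 were the highest of the 39 libraries. Per kilobase of exon, the ratio of Col1a1 to Col1a2 was 1.47 to 2.70 in the 11 R8 microglia libraries and 1.14 to 3.21 in the 12 R8 BAM libraries and 0 to 4.65 in the 16 R10 libraries.

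None of these 3 members passed the main test between populations over the stages. The log2 difference was 0.40 ± 0.20, adjusted p = 0.143 for Col3a1, 0.64 ± 0.26, adjusted p = 0.062 for Col1a1 and 0.60 ± 0.24, adjusted p = 0.0555 for Col1a2. With a replicate block of adjacent library numbers, all 3 were called higher in BAM. From E10.5 to E18.5 microglial Col3a1 rose by 3.55 ± 0.48 (adjusted p = 3.29e-07), Col1a1 by 6.04 ± 0.71 (adjusted p = 1.92e-08) and Col1a2 by 4.36 ± 0.59 (adjusted p = 3.16e-07). In BAM they rose by 4.38 ± 0.49 (adjusted p = 8.57e-09), 5.77 ± 0.67 (adjusted p = 1.4e-08) and 4.05 ± 0.56 (adjusted p = 5.06e-07).

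Type V collagen is a minor chain set that nucleates type I fibrils. Its gene Col5a2 lies beside Col3a1 on chromosome 1 (chr1:45374321-45503282, minus strand) and followed the same course at lower levels. Col5a2 at E10.5 was measured at 0, 0.072, 1.97 and 0 CPM in microglia and 5.70, 2.08, 1.98 and 6.05 CPM in BAM, and at E11.5 at 0.63, 6.49 and 0 CPM in microglia and 5.72, 2.66 and 13.6 CPM in BAM. Col5a2 in microglia then stood at 32.3, 13.3 and 16.7 at E12.5, 22.4 and 13.6 at E14.5, 17.3, 9.40 and 2.76 at E16.5, and 7.27, 9.82, 6.52 and 12.8 at E18.5 (CPM). Col5a2 in BAM then stood at 36.4, 20.1 and 15.3 at E12.5, 7.002, 15.8 and 38.9 at E14.5, 8.62, 12.04 and 3.44 at E16.5, and 5.36, 11.999, 26.3 and 23.8 at E18.5 (CPM). At E10.5 every BAM library was above every microglia library, but by a margin of 1.98 against 1.97 CPM, and the groups overlapped at all later stages.

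Col5a1 encodes the other common type V chain. Col5a1 at E10.5 was measured at 0.17, 0.94, 0.18 and 0.079 CPM in microglia and 0, 0, 2.33 and 0.72 CPM in BAM, and at E11.5 at 0.15, 0.89 and 0 CPM in microglia and 2.57, 0.82 and 0.16 CPM in BAM. Col5a1 in microglia then stood at 7.77, 8.43 and 4.84 at E12.5, 8.70 and 5.04 at E14.5, 6.87, 2.20 and 2.32 at E16.5, and 2.29, 1.87, 2.66 and 3.07 at E18.5 (CPM). Col5a1 in BAM then stood at 15.7, 7.77 and 6.37 at E12.5, 7.23, 7.25 and 14.2 at E14.5, 5.71, 6.68 and 2.81 at E16.5, and 2.68, 10.9, 7.73 and 7.45 at E18.5 (CPM). The groups overlapped at all 6 stages. The log2 difference over stages was 0.90 ± 0.40, adjusted p = 0.0981 for Col5a2 and 0.94 ± 0.42, adjusted p = 0.0991 for Col5a1.

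The basement membrane chains Col4a1 and Col4a2 lie head to head on chromosome 8 (chr8:11198423-11312826, minus strand, and chr8:11312805-11449287, plus strand) and share 22 exonic bases. Col4a1 at E10.5 was measured at 1.71, 1.16, 6.86 and 1.19 CPM in microglia and 1.22, 0, 11.6 and 7.25 CPM in BAM, and at E11.5 at 5.81, 4.32 and 5.56 CPM in microglia and 14.6, 7.47 and 16.6 CPM in BAM. Col4a1 in microglia then stood at 72.5, 41.1 and 61.2 at E12.5, 102 and 77.2 at E14.5, 82.9, 79.8 and 31.6 at E16.5, and 29.7, 90.1, 58.3 and 85.0 at E18.5 (CPM). Col4a1 in BAM then stood at 102, 47.9 and 30.4 at E12.5, 31.4, 70.4 and 122 at E14.5, 56.2, 57.3 and 24.96 at E16.5, and 55.7, 83.9, 186 and 211 at E18.5 (CPM). BAM E18.5 replicate 4 held the highest level of any library, and at E11.5 the BAM libraries were above the microglia libraries.

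Col4a2 at E10.5 was measured at 0, 0.65, 0.66 and 2.15 CPM in microglia and 1.15, 1.62, 3.97 and 5.54 CPM in BAM, and at E11.5 at 5.10, 2.59 and 4.88 CPM in microglia and 6.83, 10.03 and 7.02 CPM in BAM. Col4a2 in microglia then stood at 47.8, 21.9 and 55.1 at E12.5, 62.1 and 57.7 at E14.5, 49.8, 52.0 and 15.8 at E16.5, and 19.9, 45.5, 40.3 and 45.0 at E18.5 (CPM). Col4a2 in BAM then stood at 59.4, 33.6 and 17.4 at E12.5, 30.5, 38.97 and 81.4 at E14.5, 38.2, 29.7 and 25.4 at E16.5, and 23.3, 30.2, 92.7 and 123 at E18.5 (CPM). It moved with its neighbour, with BAM above microglia at E11.5 and overlap at the other stages. Per kilobase, the ratio of Col4a1 to Col4a2 was 0.99 to 1.78 in R8 microglia and 0.87 to 2.46 in R8 BAM libraries. The log2 difference between populations was 0.40 ± 0.29, adjusted p = 0.371 for Col4a1 and 0.47 ± 0.25, adjusted p = 0.18 for Col4a2. From E10.5 to E18.5 they rose by 4.61 ± 0.74 (adjusted p = 5.94e-06) and 5.48 ± 0.66 (adjusted p = 3.53e-08) in microglia and by 4.73 ± 0.73 (adjusted p = 3.07e-06) and 4.43 ± 0.60 (adjusted p = 3.51e-07) in BAM.

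Col4a5, the X-linked chain of the specialised type IV network of kidney and other membranes, did not share this course. Col4a5 at E10.5 was measured at 4.87, 3.69, 3.94 and 5.68 CPM in microglia and 5.09, 0.56, 0 and 3.15 CPM in BAM, and at E11.5 at 1.55, 3.26 and 0 CPM in microglia and 0.19, 1.37 and 3.89 CPM in BAM. Col4a5 in microglia then stood at 2.10, 2.69 and 2.80 at E12.5, 4.87 and 3.94 at E14.5, 6.13, 7.602 and 1.10 at E16.5, and 1.44, 8.04, 2.60 and 1.64 at E18.5 (CPM). Col4a5 in BAM then stood at 4.78, 2.37 and 0.082 at E12.5, 4.32, 2.90 and 13.1 at E14.5, 3.60, 5.83 and 0.42 at E16.5, and 1.83, 0.54, 6.85 and 14.8 at E18.5 (CPM). Microglia at E10.5 lay within the range of later microglia, and the groups overlapped at all stages. Its change from E10.5 to E18.5 was -0.38 ± 1.08, adjusted p = 0.832 in microglia and 1.37 ± 1.10, adjusted p = 0.341 in BAM. Of the remaining type IV chains, Col4a3 and Col4a4 stayed at or below 3.67 CPM and Col4a6 reached 6.58 CPM in BAM E18.5 replicate 3.

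Col18a1 encodes type XVIII collagen, the source of endostatin in vascular and epithelial basement membranes. Col18a1 at E10.5 was measured at 2.31, 2.03, 10.001 and 5.16 CPM in microglia and 5.84, 0, 10.19 and 12.3 CPM in BAM, and at E11.5 at 5.92, 1.19 and 2.18 CPM in microglia and 4.07, 2.66 and 11.4 CPM in BAM. Col18a1 in microglia then stood at 41.4, 17.9 and 44.6 at E12.5, 37.8 and 36.6 at E14.5, 22.7, 16.6 and 11.3 at E16.5, and 3.31, 17.3, 10.7 and 15.96 at E18.5 (CPM). Col18a1 in BAM then stood at 39.3, 31.4 and 10.8 at E12.5, 21.7, 26.98 and 54.8 at E14.5, 16.9, 10.3 and 8.30 at E16.5, and 16.52, 16.4, 41.5 and 52.8 at E18.5 (CPM). It peaked at E12.5 and E14.5 in microglia, and in BAM the highest libraries were E14.5 replicate 3 and E18.5 replicate 4. The log2 difference between populations was 0.32 ± 0.32, adjusted p = 0.565. From E10.5 to E18.5 it was called in BAM (2.14 ± 0.71, adjusted p = 0.0177), a call lost without BAM E18.5 replicate 4 (adjusted p = 0.0609), and not in microglia (1.30 ± 0.71, adjusted p = 0.156).

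Type VI collagen makes beaded filaments in the surroundings of many cells, and its chain Col6a1 stayed below 1 CPM in all 14 libraries of E10.5 and E11.5. Col6a1 at E10.5 was measured at 0, 0.14, 0.66 and 0 CPM in microglia and 0, 0, 0 and 0 CPM in BAM, and at E11.5 at 0.22, 0 and 0.45 CPM in microglia and 0.68, 0.27 and 0 CPM in BAM. Col6a1 in microglia then stood at 7.09, 3.49 and 3.23 at E12.5, 11.51 and 15.4 at E14.5, 4.24, 14.4 and 5.19 at E16.5, and 8.67, 16.3, 5.57 and 11.3 at E18.5 (CPM). Col6a1 in BAM then stood at 12.99, 4.65 and 0.49 at E12.5, 5.96, 3.96 and 13.3 at E14.5, 14.4, 11.9 and 4.36 at E16.5, and 8.75, 2.93, 32.4 and 41.5 at E18.5 (CPM). All 4 BAM libraries of E10.5 had 0 counts, and BAM E18.5 replicates 3 and 4 were the highest of all 39.

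Col6a2 at E10.5 was measured at 0, 0, 0.66 and 0 CPM in microglia and 0, 0, 0 and 0 CPM in BAM, and at E11.5 at 0, 0 and 0.71 CPM in microglia and 1.16, 2.18 and 0.16 CPM in BAM. Col6a2 in microglia then stood at 6.53, 6.03 and 9.09 at E12.5, 12.3 and 6.32 at E14.5, 13.6, 7.54 and 4.08 at E16.5, and 2.12, 10.47, 5.57 and 9.21 at E18.5 (CPM). Col6a2 in BAM then stood at 17.98, 6.76 and 2.71 at E12.5, 2.53, 7.36 and 14.2 at E14.5, 11.4, 10.1 and 5.20 at E16.5, and 7.32, 8.58, 13.6 and 20.1 at E18.5 (CPM). Col6a2, its neighbour on chromosome 10, was also at 0 counts in the 4 BAM libraries of E10.5. Against a floor of 3 counts over that group, BAM at E18.5 was at least 776-fold higher for Col6a1 and at least 441-fold higher for Col6a2. In microglia the log2 rises were 5.67 ± 1.09 (adjusted p = 0.000111) and 5.32 ± 1.10 (adjusted p = 0.000263).

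Col6a3, the large chain of the same filament, was the least abundant of the 3. Col6a3 at E10.5 was measured at 0, 0.14, 0 and 0.079 CPM in microglia and 0, 0.49, 0.93 and 2.22 CPM in BAM, and at E11.5 at 0, 0 and 3.15 CPM in microglia and 0.19, 0.61 and 0.081 CPM in BAM. Col6a3 in microglia then stood at 2.22, 2.26 and 3.70 at E12.5, 8.80 and 11.4 at E14.5, 8.02, 8.34 and 0 at E16.5, and 3.82, 3.55, 2.28 and 5.42 at E18.5 (CPM). Col6a3 in BAM then stood at 7.45, 6.67 and 1.11 at E12.5, 2.98, 4.13 and 10.7 at E14.5, 5.29, 10.9 and 2.43 at E16.5, and 2.14, 7.71, 10.8 and 14.3 at E18.5 (CPM). The groups overlapped at each stage. Col6a4, Col6a5 and Col6a6, the later-described chains, had counts in 4, 6 and 11 libraries and reached at most 0.54, 1.36 and 2.55 CPM.

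**Figure D3:**
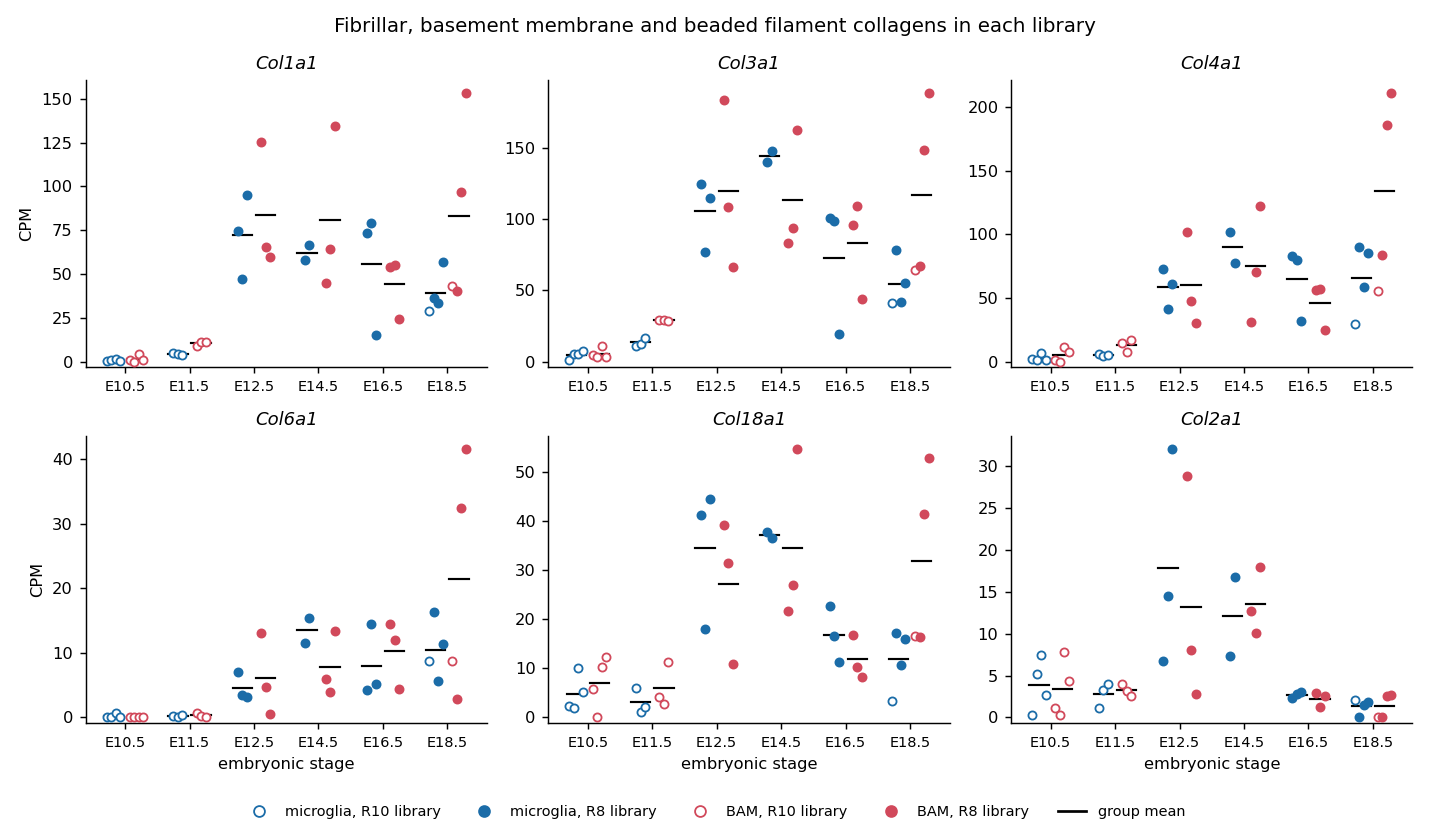
CPM of 6 collagen genes in each of the 39 libraries by stage, drawn as for Col27a1 and Col15a1 (microglia blue, BAM red, open circles R10, filled circles R8, bars group means). Col1a1, Col3a1 and Col4a1 are higher in all libraries from E12.5 than in any of E10.5, Col6a1 and Col18a1 overlap between these stages, the populations overlap, and Col2a1 is highest at E12.5 and E14.5, reaching 32.1 CPM.

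Col2a1, the cartilage collagen that neural and notochordal tissue also makes in the embryo, was highest at E12.5 and E14.5. Col2a1 at E10.5 was measured at 0.26, 5.14, 7.45 and 2.70 CPM in microglia and 1.15, 0.28, 7.86 and 4.35 CPM in BAM, and at E11.5 at 1.18, 3.22 and 3.94 CPM in microglia and 3.97, 3.21 and 2.52 CPM in BAM. Col2a1 in microglia then stood at 6.78, 14.6 and 32.1 at E12.5, 7.35 and 16.8 at E14.5, 2.29, 2.80 and 3.09 at E16.5, and 2.04, 0, 1.52 and 1.84 at E18.5 (CPM). Col2a1 in BAM then stood at 28.9, 8.12 and 2.79 at E12.5, 12.7, 10.1 and 17.9 at E14.5, 2.96, 1.23 and 2.60 at E16.5, and 0, 0.11, 2.56 and 2.70 at E18.5 (CPM). The groups overlapped at each stage. Between E12.5 and E18.5 it fell by 3.49 ± 1.04 on the log2 scale in microglia (adjusted p = 0.0333) and by 3.22 ± 1.03 in BAM (adjusted p = 0.0369), the only member called in either comparison. The backgrounds were 4.01% of genes higher and 2.74% lower in microglia, and 5.24% higher and 5.32% lower in BAM. The microglial call was lost without any 1 library except E12.5 replicate 1, and the BAM call without E12.5 replicate 1 or 2 or E18.5 replicate 1 or 2, with adjusted p up to 0.179 and 0.247. Of 6 cartilage markers 4 were tested, and between E12.5 and E18.5 none rose and 1 fell in microglia (Hapln1), with a median log2 change of -3.27, and none was called in BAM, with a median of 0.58. The part of cartilage cells in the Col2a1 levels was not tested.

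Col26a1 was also among the 16 members that reached 10 CPM in at least 2 libraries. Col26a1 at E10.5 was measured at 0, 0, 0.58 and 0 CPM in microglia and 1.29, 0, 1.40 and 0.77 CPM in BAM, and at E11.5 at 0.81, 2.44 and 0.075 CPM in microglia and 2.91, 0.55 and 0 CPM in BAM. Col26a1 in microglia then stood at 12.4, 2.92 and 9.94 at E12.5, 10.48 and 12.98 at E14.5, 5.96, 5.40 and 0 at E16.5, and 0.34, 3.93, 3.23 and 2.81 at E18.5 (CPM). Col26a1 in BAM then stood at 11.03, 8.34 and 4.52 at E12.5, 3.28, 4.91 and 18.99 at E14.5, 3.12, 6.26 and 2.68 at E16.5, and 1.88, 5.97, 6.58 and 7.45 at E18.5 (CPM). The groups overlapped at each stage, and it rose from E10.5 to E18.5 in microglia (4.08 ± 1.31, adjusted p = 0.0143) while the BAM value was 2.62 ± 1.16, adjusted p = 0.0743. Of the other 28 members, 25 never reached 10 CPM, and 15 averaged below 1 CPM. Col24a1 and Col6a4, the untested members, never reached 1 CPM. Col9a3, Col11a1 and Col12a1 passed 10 CPM in 1 library each, with highest values of 11.7, 10.1 and 10.7 CPM.

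Between E10.5 and E18.5 many collagens rose and none fell. In microglia 20 of 42 tested members were higher, where 20.9% of all tested genes were higher and 14.4% lower, with a median log2 change of 3.86 for the collagens and 0.29 for all genes. In BAM 23 of 42 were higher, against 22.8% higher and 14.8% lower, with medians of 3.23 and 0.29. The microglial members were Col1a1, Col1a2, Col3a1, Col5a1, Col5a2, Col5a3 and Col27a1 among fibril-forming genes, Col4a1 and Col4a2, Col6a1, Col6a2 and Col6a3, the fibril-associated Col9a2, Col9a3, Col12a1, Col16a1 and Col22a1, and Col8a1, Col13a1 and Col26a1. Their fitted log2 changes ran from 2.89 to 7.97. The BAM members were Col1a1, Col1a2, Col3a1, Col5a1 and Col27a1, Col4a1, Col4a2 and Col4a6, Col6a1, Col6a2 and Col6a3, Col9a2, Col9a3, Col12a1, Col14a1, Col16a1, Col19a1 and Col22a1, and Col8a1, Col8a2, Col13a1, Col18a1 and Col25a1.

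Several of these had 0 counts at E10.5, so their fits carry no finite fold. Against a floor of 3 counts over the group, microglial Col22a1 was at least 36.2-fold higher at E18.5, Col5a3 at least 27.8-fold and Col13a1 at least 14.9-fold. The bound was 18.2-fold for Col22a1 without microglia E18.5 replicate 2, 13.5-fold for Col5a3 without replicate 1 and 8.29-fold for Col13a1 without replicate 4. BAM Col12a1 was at least 222-fold higher, Col9a2 at least 134-fold, Col8a1 at least 97.4-fold, Col22a1 at least 70.1-fold, Col19a1 at least 33.8-fold and Col25a1 at least 20.5-fold. The bound was 33.4-fold for Col22a1 without BAM E18.5 replicate 3 and 18.1-fold for Col19a1 without replicate 1. With 2 counts at E10.5, the ratio was 109 for microglial Col9a2 (95% counting interval 29.6 to 906), 41.7 for Col8a1 (11.02 to 353), 26.8 for Col12a1 (6.90 to 229.9), and 243 for BAM Col4a6 (66.8 to 2014). It was 15.8 for Col8a1 without microglia E18.5 replicate 2 and 10.4 for Col12a1 without replicate 4. Without the 1 library that held the 2 counts, which was microglia E10.5 replicate 2 for Col9a2 and Col8a1, replicate 3 for Col12a1 and BAM E10.5 replicate 4 for Col4a6, the rise was at least 53.2-fold, 20.4-fold, 13.2-fold and 126-fold. These limits cover counting error only. All E10.5 libraries were R10, and the R10 library of BAM at E18.5 held 0 counts of Col22a1 and Col25a1. That of microglia at E18.5 held 0 counts of Col13a1 and Col8a1. The rises of these genes in these populations thus rested on the R8 libraries alone, so stage and library series cannot be told apart for them.

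Some of the calls rested on single libraries. In microglia 16 of the 20 were called with any 1 library left out. Col5a3 was lost in 6 of 8 such fits (adjusted p up to 0.088) and by DESeq2 (0.201), Col5a1 without E10.5 replicate 1, 3 or 4 (up to 0.0671), Col12a1 without E18.5 replicate 4 (0.0512) and Col8a1 without E18.5 replicate 2 (0.0533). In BAM 16 of the 23 were called with any 1 left out. Col13a1 was lost in 7 of 8 fits, all but that without E10.5 replicate 3 (up to 0.104), Col25a1 without any 1 library of E10.5 (up to 0.0548), and Col6a3 without E10.5 replicate 1, 2 or 3 or E18.5 replicate 4 (up to 0.0762). Col8a2, Col16a1 and Col14a1 were lost without E10.5 replicate 2, 3 or 4 (up to 0.0722, 0.0523 and 0.0706), and Col18a1 as given above.

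Without the R8 libraries of E18.5, which leaves 1 R10 library per population at that stage, assumed to vary like the other groups, 10 microglial members were called, all higher and all among the 20, and 3743 of all tested genes in place of 7788. They were Col1a1, Col1a2, Col3a1, Col4a1, Col4a2, Col5a2, Col6a1, Col6a3, Col9a2 and Col27a1. In BAM 14 were called, 13 higher, all among the 23, and Col2a1 lower, and 4212 of all genes in place of 8295. Without BAM E18.5 replicates 3 and 4, which had the highest summed collagen levels of their group (849 and 1076 CPM against 303 and 409 CPM), 16 BAM members were called, 15 higher and Col2a1 lower, and 6273 of all genes.

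The change of the BAM minus microglia difference from E10.5 to E18.5 was called by edgeR for 0 of 42 members, with 6 at an unadjusted p under 0.05, where 3.08% of all genes were called higher and 3.55% lower. DESeq2 called 3 members, and 1993 of all genes in place of 1463. The comparisons share libraries, so their values are given side by side and not as independent lines. A p above the threshold does not show that the rise was alike in both populations.

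**Figure D4:**
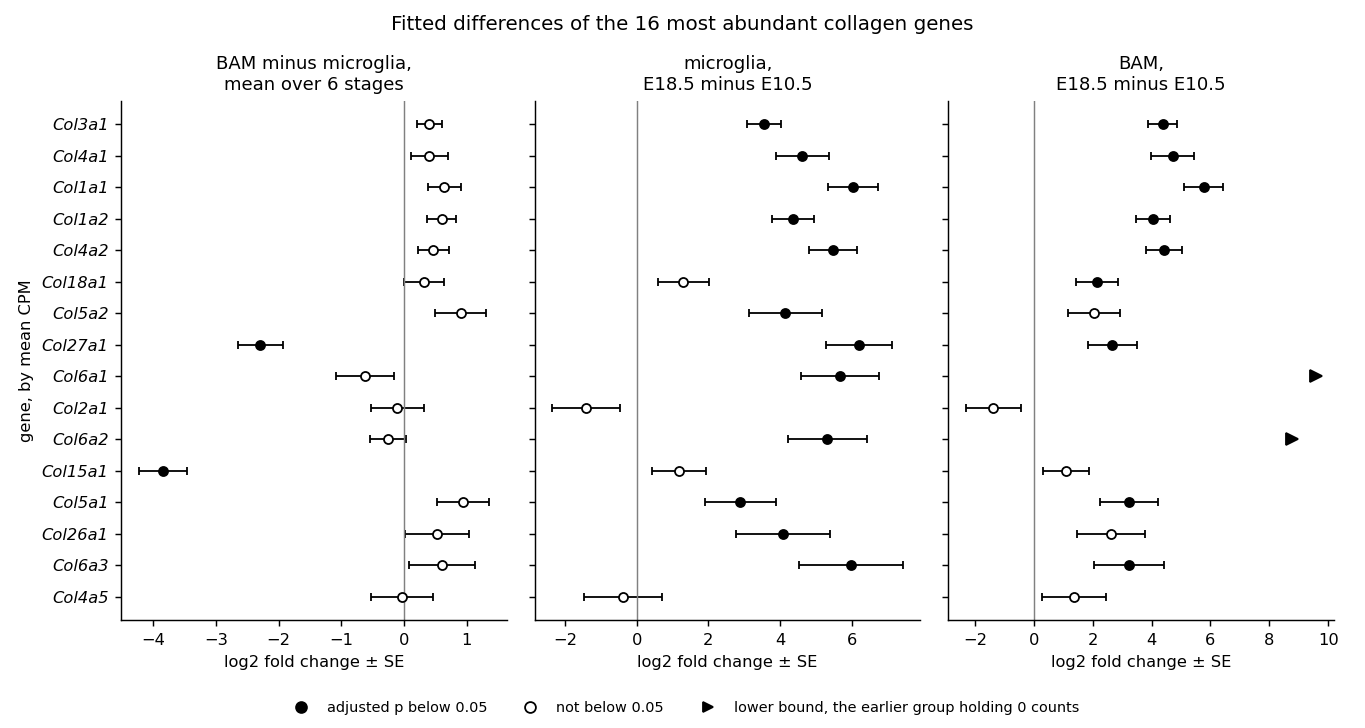
Fitted log2 fold changes with standard errors for the 16 most abundant collagen genes, ordered by mean CPM, in BAM against microglia over the stages (left) and at E18.5 against E10.5 in microglia (middle) and BAM (right), with filled circles for adjusted p below 0.05 and triangles for lower bounds. Between populations Col27a1 and Col15a1 alone lie left of 0 with filled circles, whereas 12 microglial and 11 BAM values of the 16 are called between stages.

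Markers of other cell types moved with the abundant collagens. The summed CPM of the 44 collagens was 26.8 to 70.0 in microglia and 28.2 to 114 in BAM at E10.5 and E11.5, 232 to 632 and 217 to 1076 in the R8 libraries, and 219 and 303 in the R10 libraries of E18.5. The R10 libraries of E18.5 were thus far above the R10 libraries of the earlier stages. The 14 fibroblast and mesenchyme markers summed to 4.40 to 19.7 CPM in microglia and 7.46 to 25.6 CPM in BAM at E10.5 and E11.5, to 24.3 to 97.1 and 41.0 to 162 CPM in the R8 libraries, and to 28.2 and 56.5 CPM in the R10 libraries of E18.5. The 9 mural cell markers summed to 2.56 to 14.7 CPM in microglia and 0.85 to 10.55 CPM in BAM at E10.5 and E11.5, to 35.4 to 146 and 17.3 to 305 CPM in the R8 libraries, and to 47.5 and 67.9 CPM in the R10 libraries of E18.5. The collagen and marker sums were lowest at the earliest stages in both populations.

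The 10 endothelial markers summed to 40.1 to 79.3 CPM in microglia and 38.3 to 83.7 CPM in BAM at E10.5 and E11.5, to 66.5 to 187 and 92.4 to 387 CPM in the R8 libraries, and to 70.1 and 98.3 CPM in the R10 libraries of E18.5. The 12 neural markers summed to 8.79 to 37.4 CPM in microglia and 19.2 to 61.4 CPM in BAM at E10.5 and E11.5, to 154 to 776 and 156 to 798 CPM in the R8 libraries, and to 133 and 250.3 CPM in the R10 libraries of E18.5. From E10.5 to E18.5, where 20.9% of all tested genes rose and 14.4% fell in microglia and 22.8% rose and 14.8% fell in BAM, 6 of 13 fibroblast genes rose in microglia and 8 of 13 in BAM, 5 of 8 and 8 of 8 mural genes, 5 of 10 and 7 of 10 endothelial genes (1 fell in microglia), and 9 of 12 and 8 of 12 neural genes. Of 8 choroid plexus and epithelium genes 2 rose in microglia and 3 in BAM, and of 4 cartilage genes none rose and 1 fell in microglia, and 2 rose and 1 fell in BAM. Among defining genes, Dcn, a proteoglycan of fibroblasts, averaged 0.69 ± 0.82 CPM in microglia and 0 in BAM at E10.5, and 12.3 ± 3.24 and 28.1 ± 13.4 CPM at E18.5 (SD, n = 4). Pdgfrb, a pericyte receptor, averaged 0.95 ± 1.55 and 1.75 ± 2.67 CPM at E10.5 and 12.1 ± 6.01 and 20.7 ± 10.1 CPM at E18.5.

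Pdgfra averaged at most 10.15 CPM in any group and the endothelial cadherin Cdh5 at most 11.6 CPM. Between populations over the stages, where 13.7% of all tested genes were higher in BAM and 14.501% lower, 2 of 13 fibroblast markers were higher and none lower, 1 of 8 mural markers was lower, 1 of 10 endothelial and 1 of 12 neural markers were higher, and 1 of 8 choroid plexus and epithelium markers (Krt18) was lower. In Foxc2 and Postn, the fibroblast genes called, the log2 differences were 1.83 ± 0.66, adjusted p = 0.0358, and 1.08 ± 0.39, adjusted p = 0.0357. Foxc2 had 0 counts in microglia at E10.5, so the size of its fitted difference is uncertain. Its highest group mean was 1.97 CPM, in BAM at E14.5, against 1.95 CPM in microglia. The part of such cells in the collagen levels was not tested.

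**Figure D5:**
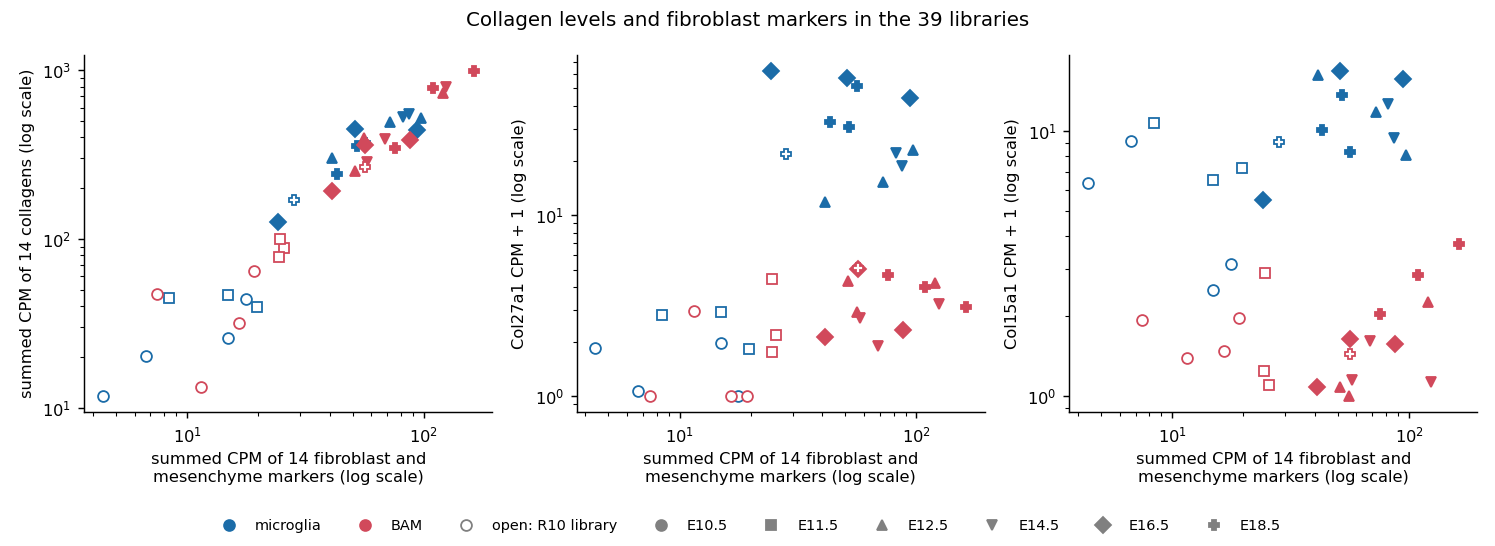
Each point is 1 of 39 libraries, with the summed CPM of 14 fibroblast and mesenchyme markers on a log axis against the summed CPM of 14 abundant collagens (left, without Col27a1 and Col15a1), Col27a1 CPM plus 1 (middle) and Col15a1 CPM plus 1 (right), all on log axes, with colour for population, shape for stage and open symbols for R10. The 14 collagens rise with the marker sum in both populations, while within each stage microglia lie above BAM in Col15a1, and from E12.5 in Col27a1.

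The genes that fold, cut, bind and degrade collagen were read from lists, and most are used by other pathways too. Of 20 folding and modification genes, 4 were higher in BAM over the stages and 5 lower, beside backgrounds of 13.7% and 14.501%. Serpinh1, the collagen chaperone HSP47, was higher in BAM (0.78 ± 0.16, adjusted p = 0.000309). It averaged 212 ± 39.7 CPM in BAM and 53.3 ± 17.7 CPM in microglia at E10.5 (SD, n = 4), and 46.2 ± 23.7 and 15.3 ± 4.48 CPM at E18.5. Its highest group mean was thus in BAM at E10.5, where Col1a1, Col1a2 and Col3a1 were low. P4ha1, a prolyl hydroxylase subunit, and Plod3, a lysyl hydroxylase, were lower in BAM (-0.66 ± 0.07, adjusted p = 6.75e-10, and -0.66 ± 0.04, adjusted p = 9.83e-15), and the lysyl hydroxylase Plod1 and the prolyl hydroxylation partner Crtap were higher (0.42 ± 0.06, adjusted p = 1.64e-07, and 0.57 ± 0.08, adjusted p = 1.8e-07).

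From E10.5 to E18.5, 12 of the 20 rose and 1 fell in microglia, beside 20.9% and 14.4% of all genes, and 8 rose and 2 fell in BAM, beside 22.8% and 14.8%. The same backgrounds over time, and those of 13.7% higher and 14.501% lower between populations, hold for the lists that follow. Of 12 processing and crosslinking genes, 1 was higher in BAM over the stages and 3 lower. Pcolce, an enhancer of procollagen cleavage, was higher (1.10 ± 0.28, adjusted p = 0.00209), and Bmp1, the procollagen C-proteinase, Loxl3 and Lox, lysyl oxidases, were lower (-0.85 ± 0.17, adjusted p = 0.000219, then -0.61 ± 0.08, adjusted p = 2.26e-07, and -1.17 ± 0.45, adjusted p = 0.0485). Bmp1 averaged 41.7 ± 5.54 CPM in microglia and 8.91 ± 1.81 CPM in BAM at E16.5 (SD, n = 3). Lox was near the floor at E10.5, with 1.11 ± 0.98 CPM in microglia and 0.017 ± 0.034 CPM in BAM. The Lox means were 0.93 ± 1.23 and 0.99 ± 1.40 CPM at E11.5, and 8.86 ± 1.55 and 6.83 ± 3.17 CPM at E18.5. Over time 5 of the 12 rose and none fell in microglia, and 6 rose and 1 fell in BAM.

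Of 12 receptor and uptake genes, 1 was higher in BAM and 2 lower. Lair1, an inhibitory receptor that binds collagen, averaged 629 ± 40.9 CPM in microglia and 38.9 ± 9.34 CPM in BAM at E18.5, with a log2 difference over stages of -4.49 ± 0.11, adjusted p = 2.89e-25. Mrc1, the mannose receptor CD206 that takes up collagen fragments and is also a BAM marker, averaged 9029 ± 744 CPM in BAM and 537 ± 53.4 CPM in microglia (3.07 ± 0.14, adjusted p = 2.37e-19). Mrc2, the collagen uptake receptor Endo180, was lower in BAM (-1.23 ± 0.43, adjusted p = 0.0293), and Itga1, the collagen integrin subunit, was fitted at 0.66 ± 0.44, adjusted p = 0.312. Over time 5 of the 12 rose and 1 fell in microglia, and 8 rose and none fell in BAM.

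Of 9 breakdown genes, 3 were higher in BAM and 3 lower. Mmp9, gelatinase B, averaged 108 ± 13.7 CPM in BAM and 15.2 ± 5.23 CPM in microglia at E16.5 (3.06 ± 0.25, adjusted p = 3.61e-12 over the stages). Mmp2, gelatinase A, was lower in BAM (-2.17 ± 0.17, adjusted p = 1.12e-12), as was its activator Mmp14 (-2.47 ± 0.35, adjusted p = 9.36e-07), which had 0 counts in BAM at E10.5. Pepd, the dipeptidase that recycles collagen proline, was higher in BAM (0.81 ± 0.05, adjusted p = 1.37e-14). Over time 4 rose and 2 fell in microglia, and 3 rose and 1 fell in BAM.

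Of 12 basement membrane partners, 2 were higher in BAM and 1 lower. Sparc, a collagen-binding matricellular protein, was the lower gene (-3.93 ± 0.17, adjusted p = 1.11e-19). It averaged 81.6 ± 37.4, 785 ± 189 and 1495.2 ± 243 CPM in microglia at E10.5, E12.5 and E18.5, and 8.37 ± 3.68, 43.2 ± 22.4 and 165 ± 74.4 CPM in BAM. Nid2, which bridges laminin and type IV collagen, and Lamb2, a laminin chain, were higher in BAM (1.17 ± 0.07, adjusted p = 2.59e-16, and 0.65 ± 0.12, adjusted p = 2.92e-05), and Lamc1 was fitted at 0.21 ± 0.09, adjusted p = 0.091. Over time 8 of the 12 rose and none fell in microglia, and 10 rose and none fell in BAM. Sparc and Lair1 thus went with Col27a1 and Col15a1 in being higher in microglia, and Nid2, Mrc1 and Mmp9 were higher in BAM.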

How the data were processed

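RNA of sorted microglia and BAM was sequenced by a modified SMARTSeq v2 protocol with paired-end reads, per the labels' protocols. The submitters' processing notes name STAR, featureCounts and GRCm38, and the authors deposited raw counts per gene with the exon positions and length of each gene. Versions, the annotation release, strandedness and duplicate handling are not given in the sources used here. A count of 2 occurred in 49977 table cells and a count of 1 in 21280, so both reads of a pair may have been counted and counting limits may be too narrow.

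The members and lists were chosen with earlier results of these data known, and named genes followed a fixed rule: each member with at least 10 CPM in at least 2 libraries or called, up to 4 genes per list by p over the stages (2 were used for marker lists), and 7 defining genes. Not every marker gene that the rule allows is named. Folds against groups with 0 to 3 counts were recomputed without each library, chosen after seeing the data. Of 53379 rows, 53274 carried a symbol. The test was edgeR 4.0.16 in R 4.3.3: filterByExpr left 22061 genes with 99.973% of counts, TMM factors, 1 coefficient per group over 39 libraries (27 residual degrees of freedom), quasi-likelihood tests, and Benjamini-Hochberg values over all tested genes, called at 0.05. Leave-one-out fits kept the dispersion trend of the full fit. Errors after a log2 value are standard errors, and after CPM standard deviations. The 5 motifs were searched in RefSeq windows. The model was tested on simulated data. Alternatives were RLE factors, no filter, DESeq2 1.42.0, counts divided by 2, compared groups alone, blocks, left-out libraries or series, part of the stages, and, chosen after seeing the data, BAM without E18.5 replicates 3 and 4.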

Additional observations from a re-analysis of the deposited data

Results flagged for a closer look

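In 6 of 62 member groups of 4 libraries, 1 library stood far above the other 3. The rule always flags a group with 0 in 3 libraries and a count in the other. That was so for Col27a1, Col6a2 and Col26a1 here, so the number of flags is not set against a rate by chance. Microglia E10.5 replicate 3 was that library for Col4a1 (6.86 CPM), Col5a2 (1.97 CPM), Col6a2 (0.66 CPM) and Col26a1 (0.58 CPM), and replicate 2 for Col5a1 (0.94 CPM). BAM E10.5 replicate 2 was that library for Col27a1 (1.94 CPM against 0 in the other 3).

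No collagen was called for a change of the BAM minus microglia difference between E10.5 and E18.5. Of the 41 list genes named, 15 were, where 3.08% of all tested genes were called higher and 3.55% lower. Most of the 41 were picked by their p between the populations in these same data. Their count therefore cannot be set against that of the collagens or of all genes. Among pathway genes the log2 change was -1.02 ± 0.21 for P4ha1, -0.69 ± 0.17 for Plod1, -0.76 ± 0.13 for Plod3, -2.02 ± 0.54 for Bmp1, -1.77 ± 0.25 for Loxl3 and -1.18 ± 0.31 for Lair1, all toward microglia. It was 2.23 ± 0.38 for Mrc1 and 8.79 ± 1.47 for Mmp14, toward BAM. Among marker genes of other cells it was 8.09 ± 1.79 for Dcn, 6.57 ± 1.47 for Acta2, 3.35 ± 0.86 for Flt1 and 1.47 ± 0.42 for Egfl7. Mmp14 and Dcn had 0 counts in BAM at E10.5, so the size of their values depends on the prior count of the fit. Acta2 averaged 0.038 ± 0.045 CPM in that group, near the floor, so the size of its value is uncertain too. Among macrophage genes it was -1.23 ± 0.17 for Cx3cr1, -1.68 ± 0.30 for Tmem119 and 2.55 ± 0.35 for Dab2.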

How the results depend on the processing

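The 1101 recomputed values of single members were log2 differences, and mean levels of Col27a1, Col15a1, Col1a1, Col3a1 and Col4a1 with TMM library sizes. Of these, 976 kept direction and call or, for mean levels, moved by less than 1 SD, and 120 lost the call. A further 2 mean levels of Col3a1 moved by more than 1 SD, and 3 log2 differences turned direction. The direction turned for Col27a1 over the mean of E10.5 and E11.5 (0.14), and, without the R8 libraries at E18.5, for microglial Col8a1 (-2.17) and BAM Col8a2 (-4.76). The cause was not tested. With DESeq2 the calls over all genes also moved, to 1611 from 989 at E10.5 and to 2136 from 1470 at E11.5. They moved to 2227 from 1488 for microglia at E18.5 against E12.5, and to 1993 from 1463 for the change of the difference. Counts of called collagens moved as follows. Over the stages the 4 calls became 9 without the filter and 9 with a replicate block of adjacent library numbers (6 higher and 3 lower each), and 3 to 7 with 1 library left out. At E10.5 the 0 calls became 8 without the filter, 7 with DESeq2, 1 with counts divided by 2, 1 with the block and 0 to 4 with 1 library left out. At E11.5 the 4 became 7 with DESeq2, 2 with the compared groups alone and 1 to 4 with 1 library out. At E12.5 the 1 call became 2 without the filter, with counts divided by 2 and with the compared groups alone, and 1 to 2 with 1 library out. At E14.5 the 2 became 1 to 2 with 1 library out. At E18.5 the 3 became 5 without the filter and 6 with the compared groups alone. For E18.5 against E12.5 the 1 microglial call became 4 with the compared groups alone, 2 with DESeq2 and 0 to 1 with 1 library out, and the 1 BAM call became 0 without the R10 libraries or with the compared groups alone and 0 to 2 with 1 library out. For E18.5 against E10.5 the 20 and 23 calls became 10 and 14 without the R8 libraries. For the change of the difference, the 0 became 3 without the filter, 3 with DESeq2, 1 with counts divided by 2 and 0 to 2 with 1 library out. The fit with the compared groups alone is the main fit for the mean over stages. RLE factors kept all 12 counts within 1.5 times. The block added Col3a1, Col5a2, Col1a2, Col4a2 and Col1a1, all higher in BAM. The 19 correlations of paired deviations were all above 0, from 0.0002 to 0.194, and 6 were over 0.1. They are low but do not show that the samples are unpaired. The main fit left the block out, and whether adjacent numbers pair the samples is not settled. Depth limits the rare members: at E10.5 a group total of 0 counts allows up to 3. For E18.5 against E10.5, stage and library series cannot be told apart except through the 1 R10 library per population at E18.5. For E18.5 against E12.5, the E12.5 libraries were all R8, as were all but 1 of each E18.5 group.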

Other observations

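Col27a1 made up 2.52 to 26.6% of the summed collagen CPM in the R8 microglia libraries, with the highest share in E16.5 replicate 3, and 9.44% in the R10 microglia library of E18.5. At E10.5 and E11.5 it made up 0 to 3.19% in microglia. In BAM it made up 0.20 to 1.17% of the R8 libraries' sum, 1.36% in the R10 library of E18.5, and 0 to 6.87% at E10.5 and E11.5. Col15a1 made up 3.77 to 20.1% of the microglial sum at E10.5 and E11.5, when the other members were low, and 1.199 to 4.14% in the R8 libraries.

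BAM E18.5 replicate 4 held the highest level of 9 of the 16 abundant members, and BAM E14.5 replicate 3 of 3 more (Col18a1, Col5a2 and Col26a1). The 5 highest members of each library, which differed between libraries, made up 54.2% to 75.0% of its collagen sum.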
